A study of Mus musculus with 6 samples.

Results

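Hpgd and the genes that make, export, break down or sense prostaglandins were followed in macrophages with and without macrophage scavenger receptor 1 (MSR1). Hpgd was picked because its RNA fell furthest in MSR1 knockout cells among genes with at least 1 CPM (counts scaled to a common library size), so its values are given as a description with no test. The other 9 genes make, break down or sense prostaglandins. They were the cyclooxygenases Ptgs1 and Ptgs2, the prostaglandin E synthases Ptges, Ptges2 and Ptges3, the prostacyclin synthase Ptgis, the thromboxane synthase Tbxas1, and the prostaglandin E2 receptors Ptger2 and Ptger4. All 10 were among the 52550 genes of the deposited count table, and 9 of the 10 were among the 16402 genes with enough counts to test, the exception being Ptgis.

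The study set 3 RNA-seq libraries of MSR1 KO macrophages against 3 of MSR1 WT macrophages. Its stated aim was the mechanism by which MSR1 favours bone-forming differentiation and the M2-like (tissue repair) activation of macrophages. Bone marrow cells of C57BL/6 mice, freed of red cells, were grown for 7 days with M-CSF at 25 ng/ml, the growth factor that turns marrow precursors into macrophages. Both genotypes then shared a transwell for 48 h with bone marrow stromal cells (BMSCs), so no library came from macrophages kept alone. The knockout was present in every cell of the donor mouse, and the libraries were bulk RNA, in which fewer cells carrying a transcript and less transcript per cell cannot be told apart. The study calls the libraries biological replicates but the labels do not tie them to single animals, so p-values measure the spread between these samples.

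Prostaglandins are short-lived lipid signals. Phospholipases free arachidonate from membranes, cyclooxygenases turn it into prostaglandin H2, and terminal synthases turn that into prostaglandin E2, prostacyclin, thromboxane and others, which act on receptors at the cell surface. The signal ends when a transporter takes prostaglandins back into a cell and the dehydrogenase encoded by Hpgd oxidises them, after which reductases complete the inactivation. Macrophages are a major source of prostaglandin E2, which stromal and bone-forming cells sense.

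Library totals ranged from 36143518 to 47417448 counts, so that 1 count was worth between 0.0211 and 0.0278 CPM. Msr1, the targeted gene, had 59.0, 45.8 and 43.0 CPM in the KO libraries and 183, 193 and 223 CPM in the WT libraries, a log2 fold change of -2.02 (SE 0.14, edgeR adjusted p = 0.00124), so the KO libraries were lower than the WT libraries but not at 0. Which exons the knockout removes is not given in the sources used here. Macrophage markers were abundant in every library, with a sum over 10 genes of 24039 to 25359 CPM in KO and 24728 to 27606 CPM in WT. Stromal markers were present too. Their sum over 14 genes was lower in KO (1736 to 2264 CPM) than in WT (2368 to 3018 CPM). By the adjusted test 4 of them were lower and none was higher. Col1a1, Col1a2 and Acta2 had the highest levels and weighed most in the sum. Thy1 and Eng went the other way, with every KO library above every WT library (log2 fold changes 1.31 and 0.47). Their edgeR adjusted p were 0.0907 and 0.119. Mast cell markers, a cell type rich in prostaglandin enzymes, summed to 23.5 to 24.6 CPM in KO and 8.89 to 17.1 CPM in WT. Most of it came from Kit, which was higher in KO (log2 fold change 1.04, edgeR adjusted p = 0.0393). The proteases Tpsb2 and Mcpt4 were at 0 in all libraries. Cpa3 of the same list was found in every library, with means of 2.85 CPM in KO and 2.44 CPM in WT. Over all tested genes, 805 (4.91%) had an adjusted p under 0.05, 369 of them higher (2.25%) and 436 lower (2.66%) in KO, and the groups did not overlap for 25.5% of genes.

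Hpgd was nearly lost from MSR1 KO macrophages. It encodes the NAD+-dependent dehydrogenase that oxidises the hydroxyl group prostaglandins need for activity. The gene (ENSMUSG00000031613.9) lies on chromosome 8 of GRCm38 from 56294585 to 56321043 on the plus strand, with 7 exons in 1 annotated transcript of 1683 bases. Counts were 16, 24 and 28 in the KO libraries and 1373, 1645 and 1309 in the WT libraries. Each KO library stood at 1.34%, 1.82% or 1.81% of the WT mean, and the groups were far from overlapping. Mean levels were 0.550 ± 0.091 CPM in KO (SD, n = 3) and 33.2 ± 1.49 CPM in WT (SD, n = 3), a 60.4-fold difference and a log2 fold change of -5.90 (SE 0.15, 95% interval -6.25 to -5.55). The KO counts were above the 3 counts that a reading of 0 would allow, so a low residue of transcript was detected in all 3 KO libraries.

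Only 4 of 16402 tested genes had a lower log2 fold change. They were Serpinb12, Gm10461, Pnma5 and Kcne4, and all had 0 counts in the KO libraries and at most 0.520 CPM in the WT mean, so their fitted fold changes depended on the prior count. The gene next after Hpgd was Ugt1a6b at -5.27, with WT counts of 976, 1342 and 64, a far wider spread than that of Hpgd. These 5 were singled out after their values were seen. Under 12 alternative settings, including the removal of each library in turn, the log2 fold change of Hpgd stayed between -5.97 and -5.77.

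The promoter of Hpgd is shown because the gene has 1 annotated transcript and so 1 start in that annotation. That of Slco2a1, the uptake transporter that fell with it, is shown for comparison. Both are the 250 bases before the start given by RefSeq (GRCm38.p6, plus strand), the Hpgd window at chr8:56294302-56294551 and the Slco2a1 window at chr9:103008237-103008486. Capitals mark the Sp1 box (GGGCGG, or CCGCCC where it lies on the minus strand) and the TATA motif (TATAAA).
Hpgd: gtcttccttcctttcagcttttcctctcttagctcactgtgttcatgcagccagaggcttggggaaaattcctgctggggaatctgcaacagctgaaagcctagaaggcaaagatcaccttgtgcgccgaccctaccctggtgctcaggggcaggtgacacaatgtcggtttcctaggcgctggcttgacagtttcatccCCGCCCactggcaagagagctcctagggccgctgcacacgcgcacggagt
Slco2a1: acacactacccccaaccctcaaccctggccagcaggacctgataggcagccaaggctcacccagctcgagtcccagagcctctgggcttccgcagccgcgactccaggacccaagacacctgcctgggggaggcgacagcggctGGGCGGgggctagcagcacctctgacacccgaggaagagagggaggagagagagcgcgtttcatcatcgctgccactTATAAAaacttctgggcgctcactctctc
The Hpgd window held the Sp1 box 50 bases before the start on the minus strand and no TATA motif. The Slco2a1 window held the Sp1 box 106 bases and the TATA motif 29 bases before the start, both on the plus strand. Neither window held the cAMP response element TGACGTCA, the AP-1 motif TGANTCA, the nuclear receptor half-site AGGTCA or the CCAAT box on either strand. The Hpgd window ends at 56294551, short of the annotated gene start at 56294585, so the RefSeq start of Hpgd differs from the annotated one. The RefSeq start of Slco2a1 lies inside the deposited gene, which also has transcripts that begin further upstream.

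Across the 32851 promoter windows of the RefSeq table, read on both strands, the Sp1 box was in 32.7%, the CCAAT box in 33.8%, the half-site in 14%, the TATA motif in 12.4%, the AP-1 motif in 6.75% and the cAMP response element in 1.55%. Of the 10 genes, 9 had a window there, Ptgis being the exception. The Sp1 box was in 5 of the 9 (Hpgd, Ptgs2, Ptges, Ptges3 and Ptger4) and the CCAAT box in 2 (Ptger2 and Ptger4). Tbxas1 alone held the AP-1 motif and the TATA motif, the latter on both strands in overlapping positions. None of the 9 held the cAMP response element or the half-site. A match describes these letters and is not evidence of binding.

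**Figure D1:**
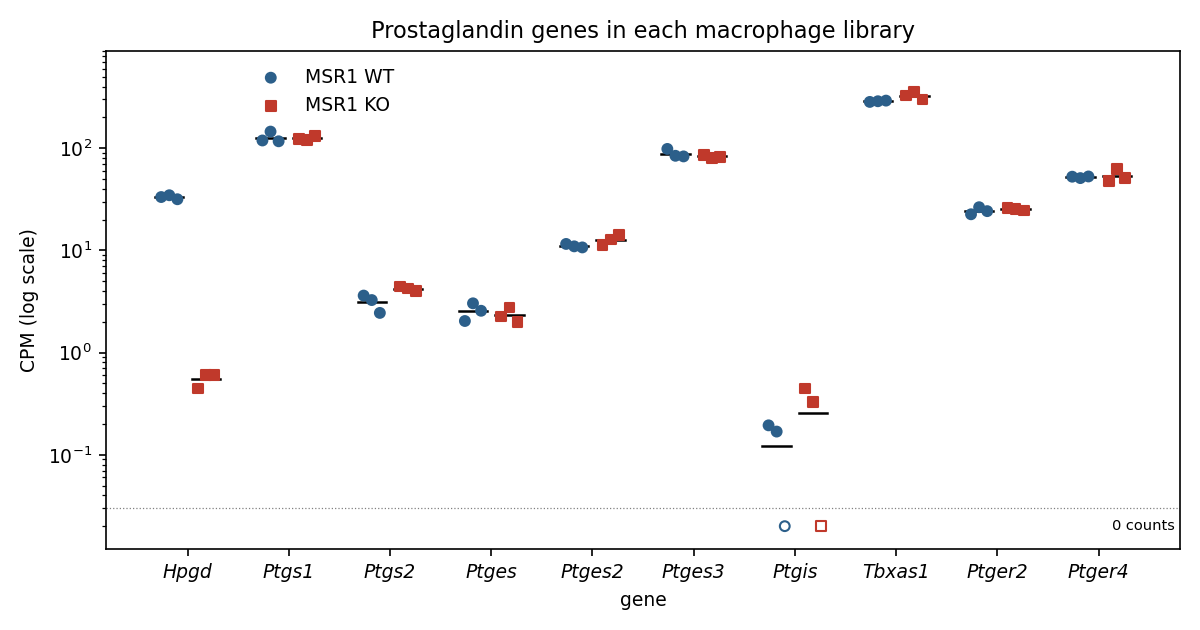
CPM of the 10 genes (log scale) in each of 3 MSR1 WT libraries (circles) and 3 MSR1 KO libraries (squares), with the group mean as a bar and open symbols at the bottom for 0 counts. Hpgd drops from 33.2 to 0.550 CPM on average, while the WT and KO points of the other tested genes lie near each other.

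Per length, Hpgd went from the fourth place among the 10 genes to the ninth. In WT cells its level was 19.7 ± 0.888 CPM per kilobase of exon (SD, n = 3), above Ptger4 and Ptger2, and it lay at the 85.4th percentile of tested genes. In KO cells it was 0.327 ± 0.0539 CPM per kilobase (SD, n = 3), at the 13.7th percentile and below every other gene of the pathway set but Ptgis.

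The order of the other genes was much alike in both genotypes. In WT cells, per kilobase, Ptges3 led at 40.0 CPM, followed by Ptgs1 at 32.8 and Tbxas1 at 31.7, whose libraries overlapped. Below Hpgd came Ptger4 at 7.85, Ptger2 at 4.70 and Ptges2 at 2.19 CPM per kilobase. Ptgs2 at 0.679 and Ptges at 0.648 overlapped, and Ptgis was last at 0.0471. In KO cells Ptges3 (37.6), Tbxas1 (36.0) and Ptgs1 (32.2 CPM per kilobase) formed an overlapping top, and Ptgs2 (0.922) lay above Ptges (0.595) with no overlap. In both genotypes the constitutive cyclooxygenase, the thromboxane synthase, Ptger4 and Ptger2 lay well above the inducible cyclooxygenase and its partner Ptges in level per length. The places of the first genes rest on the length used, and with the longest single transcript in place of all exons Tbxas1 led at 67.5 CPM per kilobase over all 6 libraries.

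The other members of the set did not follow Hpgd. Of the 8 others that were tested, none had an adjusted p under 0.05 by edgeR or by DESeq2, which called 4.91% and 9.95% of all genes. An unadjusted edgeR p under 0.05 was found for 1 (Tbxas1) of the 8, against 18.9% of all genes. Their log2 fold changes ran from -0.12 to 0.44 with a median of 0.05, all within 0.5 as for 80.4% of all tested genes, and none was called under any of the 12 alternatives. The groups did not overlap for 2 of the 8, Ptgs2 and Tbxas1, both with KO above WT, against 25.5% of all genes.

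Ptgs1, the constitutive cyclooxygenase, had 4435, 4793 and 6125 counts in KO and 4912, 6904 and 4833 in WT. The groups overlapped, with means of 125 ± 5.89 and 127 ± 15.9 CPM (SD, n = 3 each). The log2 fold change was -0.02 (SE 0.10, 95% interval -0.25 to 0.20, edgeR adjusted p = 0.933).

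Ptgs2, the cyclooxygenase that inflammatory signals induce, was the highest of the 10 in log2 fold change. Its counts were 159, 169 and 186 in KO and 149, 155 and 101 in WT, or 4.22 ± 0.213 and 3.11 ± 0.600 CPM (SD, n = 3 each). Every KO library was above every WT library, the third WT library being the lowest. The log2 fold change of 0.44 (SE 0.20, 95% interval -0.03 to 0.91) did not pass the test (edgeR adjusted p = 0.295), and without the third WT library it was 0.30.

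The prostaglandin E synthases were close to level between genotypes. Ptges, the inducible microsomal enzyme coupled to Ptgs2, had 81, 110 and 93 counts in KO and 84, 144 and 106 in WT, with a log2 fold change of -0.12 (SE 0.25, 95% interval -0.69 to 0.44, edgeR adjusted p = 0.849). The groups overlapped, and the few counts left the widest interval of the set. Ptges2, a second membrane-bound enzyme, had 403, 510 and 655 counts in KO and 477, 520 and 442 in WT (log2 fold change 0.20, 95% interval -0.09 to 0.49, edgeR adjusted p = 0.462). Ptges3, the cytosolic enzyme, which also serves as a co-chaperone of HSP90, had 3097, 3218 and 3844 counts in KO and 4060, 4003 and 3437 in WT (log2 fold change -0.09, 95% interval -0.29 to 0.11, edgeR adjusted p = 0.640). Both of these overlapped between the groups. A pseudogene, Ptges3-ps, matched 480 bases of Ptges3 at 100% identity but had only 54 counts over all libraries.

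Tbxas1, which makes thromboxane A2, had the most counts of the set, with 11799, 14078 and 13977 in KO and 11713, 13684 and 12085 in WT. The KO mean was 328 ± 26.5 CPM and the WT mean 288 ± 4.22 CPM (SD, n = 3 each), with all KO libraries above all WT libraries. The log2 fold change was 0.18 (SE 0.07, 95% interval 0.01 to 0.36), with an unadjusted p = 0.0381 and an adjusted p = 0.228 from edgeR. Ptgis, which makes prostacyclin and is at home in vessel walls, had 16, 13 and 0 counts in KO and 8, 8 and 0 in WT. The third library of each genotype had none, and the gene was too low to test. In a fit without the filter on low counts, which called 2.1% of 25014 genes, its log2 fold change was 1.05 (edgeR adjusted p = 0.800).

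The receptors Ptger2 and Ptger4, which both raise cAMP on binding prostaglandin E2, had mid-range levels and did not pass the test. Ptger2 had 927, 1004 and 1145 counts in KO and 931, 1256 and 1001 in WT (log2 fold change 0.05, 95% interval -0.17 to 0.26, edgeR adjusted p = 0.854). Ptger4 had 1705, 2506 and 2391 counts in KO and 2171, 2421 and 2187 in WT (log2 fold change 0.05, 95% interval -0.20 to 0.30, edgeR adjusted p = 0.873). The groups overlapped for both. Exons of genes on the opposite strand covered 16.5% of the exon bases of Ptger4, 4.74% of Ptger2, 3.81% of Ptgs1, 6.08% of Ptgis and 1.58% of Tbxas1. Since the strand setting of the counting was not given in the sources used here, reads from those stretches cannot be told apart from the opposite genes. Hpgd, Ptgs2, Ptges, Ptges2 and Ptges3 had no such overlap.

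**Figure D2:**
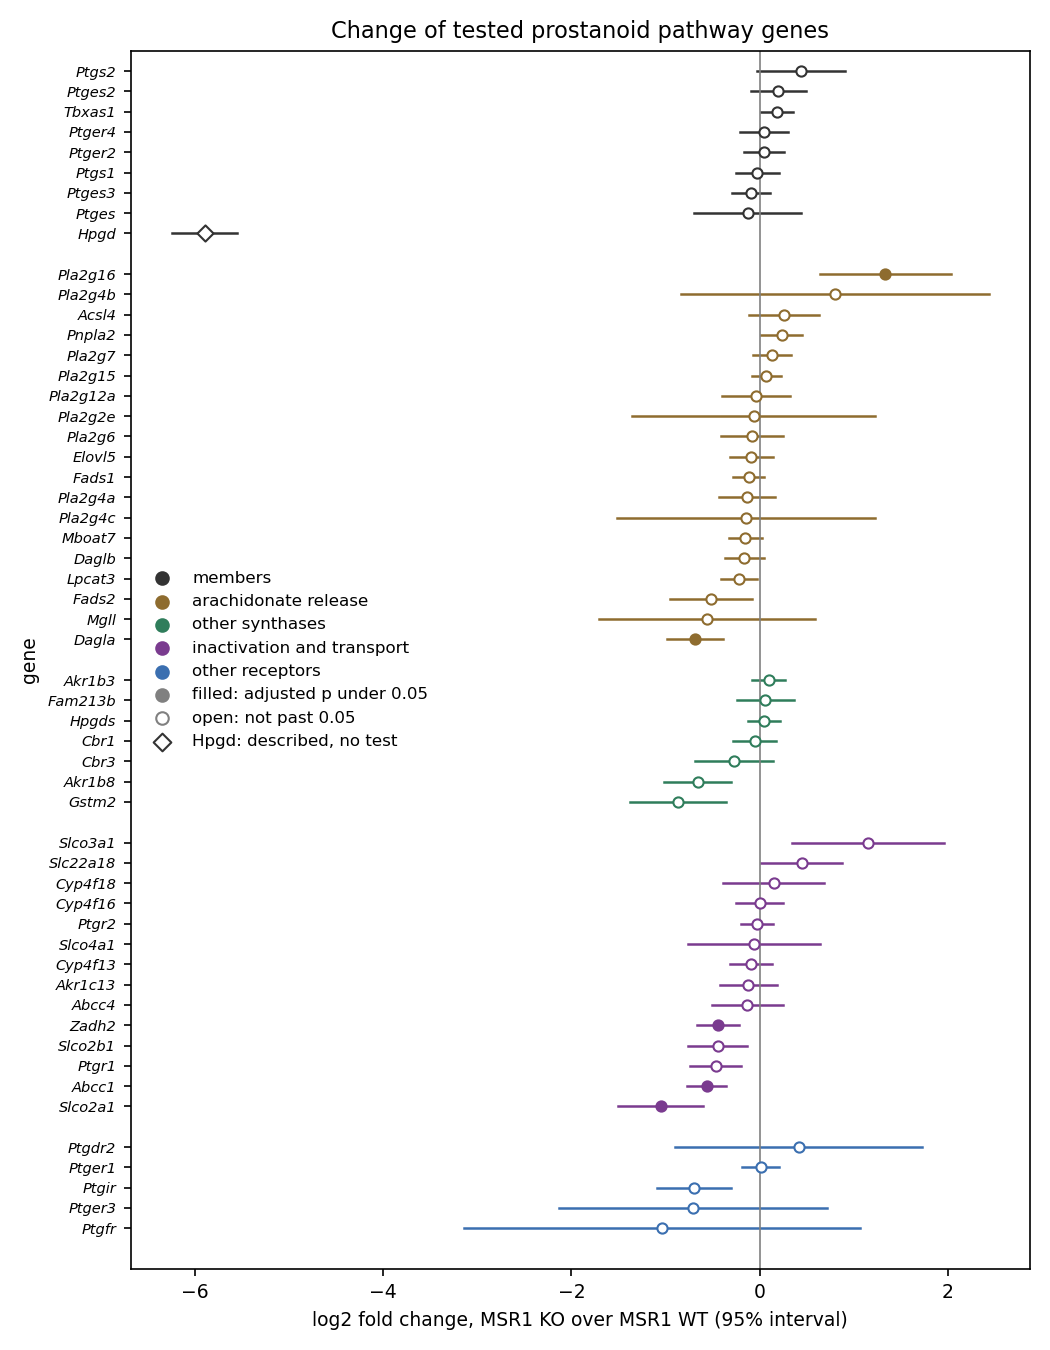
Log2 fold change of each tested gene (MSR1 KO over MSR1 WT, n = 3 each) with its 95% interval, grouped by step of the pathway, with filled circles for an edgeR adjusted p under 0.05 and a diamond for Hpgd. Hpgd stands alone near -5.90, the other genes lie between -1.05 and 1.34, and the filled points are Pla2g16, Dagla, Zadh2, Abcc1 and Slco2a1.

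The list of other inactivation and transport genes was the one with most calls among the prostanoid steps. Of 14 tested genes, 3 fell and none rose (21.4% called, against 4.91% of all genes), with a median log2 fold change of -0.11 against -0.0023 over all genes. Slco2a1, the transporter that carries prostaglandins into cells for oxidation, fell furthest. Its counts were 206, 260 and 221 in KO and 582, 441 and 490 in WT, and every KO library was below every WT library. Mean levels were 5.67 ± 0.890 and 11.8 ± 2.41 CPM (SD, n = 3 each). The log2 fold change was -1.05 (SE 0.20, 95% interval -1.50 to -0.60, edgeR adjusted p = 0.0267). Zadh2, a reductase that acts on the keto prostaglandins HPGD produces, fell by 0.44 on the log2 scale, from 36.4 ± 3.60 to 26.8 ± 1.25 CPM (SD, n = 3 each, edgeR adjusted p = 0.0453). Abcc1, an export pump for leukotriene C4 and other conjugates, fell by 0.56 on the log2 scale, from 207 ± 19.7 to 140 ± 9.46 CPM (SD, n = 3 each, edgeR adjusted p = 0.0197). All 3 had KO libraries below WT libraries with no overlap, which held for 13.4% of all tested genes. Over the list of 14, the groups did not overlap for 6 genes in either direction, against 25.5% of all genes.

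These 3 calls were close to the threshold. The direction held in all 12 alternatives, but Slco2a1 passed in 8 of them, Abcc1 in 6 and Zadh2 in 5. Slco2b1, an uptake transporter of organic anions and second in counts in this list, had 55.4 CPM in KO and 75.3 CPM in WT (log2 fold change -0.44, edgeR adjusted p = 0.119). Ptgr1, another prostaglandin reductase, named here after its values were seen, had a log2 fold change of -0.47 (edgeR adjusted p = 0.0688). By the study's own rule, a fold change above 1.5 with an unadjusted p under 0.05, which called 8.64% of all genes (3.59% higher, 5.05% lower), Slco2a1 of this list was lower and Slco3a1 was higher.

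The sum of stromal markers was also lower in the KO libraries, at 64.9% to 84.7% of its WT mean. Slco2a1 stood at 40.4% to 55.5% and Zadh2 at 71.7% to 77.7% of theirs. The sum does not stand for every stromal marker. By the adjusted test 4 of the 14 were lower. Thy1 (6.43 CPM in KO, 2.61 in WT) and Eng (93.9 CPM in KO, 68.0 in WT) were higher in every KO library than in any WT library. Hpgd, which was picked for its fall, stood at 1.34% to 1.82% of its WT mean on this scale. What part the stromal transcripts had in the falls of Hpgd, Slco2a1, Zadh2 and Abcc1 was not tested.

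**Figure D3:**
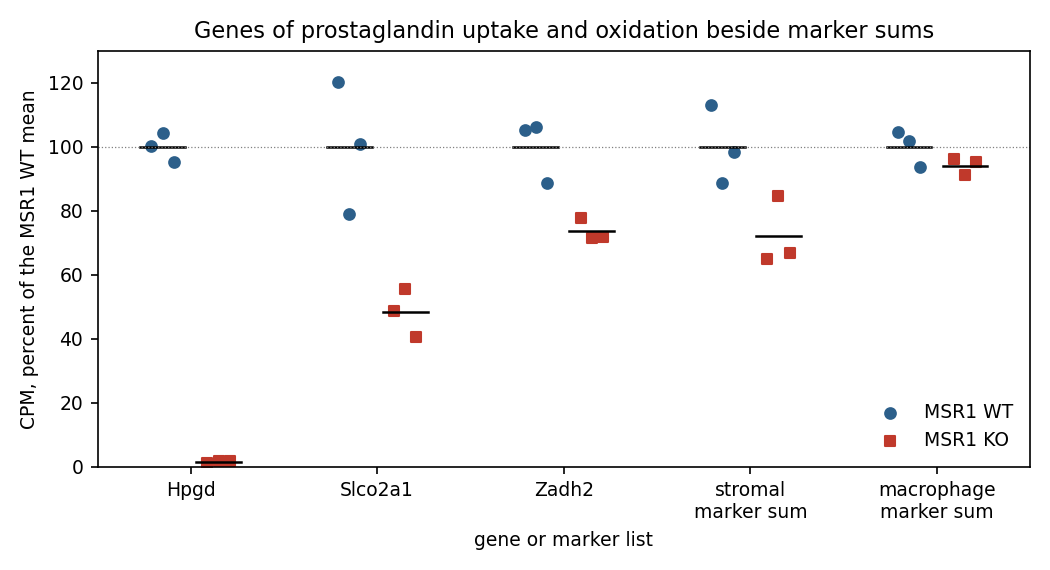
CPM of Hpgd, Slco2a1 and Zadh2 and summed CPM of stromal and macrophage markers in each library, as a percent of the MSR1 WT mean, with the group mean as a bar. KO libraries (squares) average 1.66% for Hpgd, 48.3% for Slco2a1, 73.7% for Zadh2, 72.2% for the stromal sum and 94.1% for the macrophage sum.

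Among genes that release arachidonate or return it to membranes, 1 rose and 1 fell of 19 tested (10.5% called, against 4.91% of all genes), with a median log2 fold change of -0.09. Pla2g16, a phospholipase of lipid droplets and membranes, rose, with counts of 650, 1536 and 792 in KO and 413, 400 and 443 in WT. All KO libraries were above all WT libraries, but the second KO library was well above the other two. The log2 fold change was 1.34 (SE 0.30, edgeR adjusted p = 0.0475), and 0.85 (adjusted p = 0.0367) without that library. The call held under 4 of 12 alternatives and was lost without any one of the other libraries (adjusted p up to 0.158). Dagla, a lipase that makes the endocannabinoid arachidonoylglycerol, fell by 0.68 on the log2 scale, from 9.26 ± 0.520 to 5.77 ± 0.0864 CPM (SD, n = 3 each, edgeR adjusted p = 0.0285), a call that held under 6 of 12 alternatives. The 2 genes of the list with the most counts did not pass. They were Pla2g7, the secreted phospholipase that inactivates platelet-activating factor, with a log2 fold change of 0.13, and the lysosomal Pla2g15, with 0.07 (edgeR adjusted p above 0.05 under all 12 alternatives for both).

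The other synthases gave no call by edgeR among 7 tested genes, with a median log2 fold change of -0.05. By DESeq2, 2 were lower, against 5.38% of all genes, and 2 had an unadjusted p under 0.05 by edgeR, against 18.9% of all genes. The latter were Akr1b8 at -0.66 (edgeR adjusted p = 0.0531) and Gstm2 at -0.87 (edgeR adjusted p = 0.0682), both named after their values were seen. Hpgds, the haematopoietic prostaglandin D synthase, was abundant in both genotypes, at 325 ± 25.3 CPM in KO and 314 ± 2.36 CPM in WT (SD, n = 3 each, log2 fold change 0.05). Akr1b3, an aldo-keto reductase that can make prostaglandin F2α, had a log2 fold change of 0.10. The lipocalin-type synthase Ptgds had no count in any library.

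Of 5 other prostanoid receptors tested, none passed by edgeR, 1 had an unadjusted p under 0.05 (18.9% of all genes) and 1 was lower by DESeq2 (5.38% of all genes), in both cases Ptgir, the prostacyclin receptor. Ptgir had 196, 167 and 198 counts in KO and 286, 390 and 304 in WT, with no overlap between the groups. Its log2 fold change was -0.70 (SE 0.17), with an adjusted p of 0.0576 by edgeR and 0.0092 by DESeq2. The median log2 fold change of the 5 tested receptors was -0.70, the value of Ptgir itself, against -0.0023 over all genes. Ptger3 (-0.71) and Ptgfr (-1.03), named after their values were seen, lay below it. Their groups overlapped (edgeR adjusted p = 0.607 and 0.611). The thromboxane receptor Tbxa2r and the prostaglandin D receptor Ptgdr had too few counts to test.

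Lists of genes that respond to signals linked with prostaglandins were read in the same fit. Ptger2 and Ptger4 signal by raising cAMP. Of 20 tested cAMP-responsive genes 1 rose and none fell (5% called, against 4.91% of all genes), with a median log2 fold change of 0.19. The gene was Pde3b, a phosphodiesterase that breaks cAMP down. It rose from 66.2 ± 6.05 to 98.2 ± 5.46 CPM (SD, n = 3 each, log2 fold change 0.57, edgeR adjusted p = 0.0191). This call held under 9 of 12 alternatives. Thbs1 (thrombospondin, log2 fold change -0.13) and the transcription factor Cebpb (0.38, edgeR adjusted p = 0.0742), the genes of the list with the most counts, did not pass. By the study's rule 3 of the 20 were higher, against 3.59% of all genes, and by DESeq2 4 were, against 4.57%.

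Keto prostaglandins that HPGD makes can act on the nuclear receptor PPARγ. Of 13 tested PPARγ-responsive genes, 2 fell and none rose (15.4% called, against 4.91% of all genes), with a median log2 fold change of -0.08. Pdk4, a kinase that turns down pyruvate oxidation, had 651, 701 and 772 counts in KO and 1203, 1888 and 1384 in WT. The groups did not overlap, the log2 fold change was -0.97 (SE 0.12, edgeR adjusted p = 0.0113), and the call held under all 12 alternatives. Cd36, a receptor for fatty acids and oxidised lipoproteins, fell by 0.32 on the log2 scale, from 2246 ± 157 to 1801 ± 88.6 CPM (SD, n = 3 each, edgeR adjusted p = 0.0476). This call held under 4 of 12 alternatives. Lpl, next to Cd36 in counts, had a log2 fold change of -0.19 and did not pass, and Pparg itself was level at 40.8 and 39.9 CPM.

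Hpgd shares chromosome 8 with Msr1, 16.65 Mb further along, so the genes around it were examined. The nearest tested genes, Cep44 (log2 fold change 0.15, edgeR adjusted p = 0.759) and Fbxo8 (0.08, edgeR adjusted p = 0.730), did not pass. Within 5 Mb of Hpgd none of the 19 other tested genes was called by the adjusted p (0% against 4.91% of all genes). By the study's rule 2 of the 19 were lower (10.5% against 8.64%), Neil3 at -0.59 and Vegfc at -1.25, both named after their values were seen. Within 10 Mb, 4 of 49 were called, 3 higher and 1 lower (8.16%).

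The stretch between Msr1 and Hpgd held more calls. There, 9 of 55 tested genes were called (16.4%), 4 higher and 5 lower. For chromosome 8 apart from Msr1 and Hpgd it was 49 of 887 (5.52%). By the study's rule 3 of the 55 were higher and 10 were lower (23.6%), against 8.34% of the 887. Whether position near the targeted gene has a part in these calls or in the fall of Hpgd was not tested. A single-exon transcript, Gm45540, lies on the same strand inside the fourth intron of Hpgd and shares no exon base with it. It had 0 counts in all 3 KO libraries and 4, 24 and 37 counts in WT, too few to test, and a count of 0 there allows up to 0.0645 to 0.0835 CPM.

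**Figure D4:**
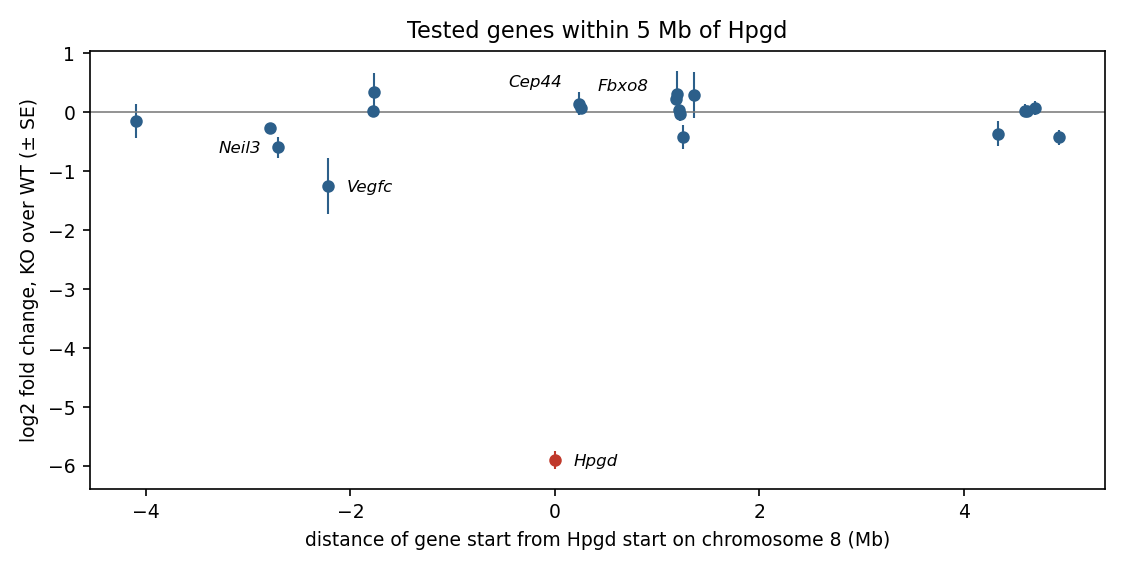
Log2 fold change (± SE, MSR1 KO over MSR1 WT, n = 3 each) of the 19 tested genes within 5 Mb of Hpgd, and of Hpgd itself in red, against the distance of their starts from that of Hpgd. Hpgd lies at -5.90, and of its neighbours the lowest is Vegfc at -1.25 while most lie near 0.

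Genes whose pattern was most like that of Hpgd were ranked by Pearson's r of log2 CPM over the 6 libraries, among 13610 genes with a mean of at least 1 CPM. As the 6 libraries are 2 genotypes, such an r mostly reflects the genotype difference, and 237 genes had an r of 0.95 or more. The first were Anxa2, which encodes annexin A2 (r = 0.997), Fam206a (0.997), Dlg5, a scaffold protein gene (0.996), Agpat1, an acyltransferase gene of phosphatidic acid synthesis (0.996), the serine protease gene Prss23 (0.995) and AC034099.1 (0.995). After each genotype's mean was taken out, r ranged from -0.58 for Dlg5 to 0.83 for Prss23. For all 6 the KO libraries lay below the WT libraries, but by far less than for Hpgd, with log2 fold changes from -1.26 for AC034099.1 to -0.33 for Fam206a. As levels in CPM, Anxa2 went from 348 ± 9.10 to 229 ± 3.94 and Prss23 from 49.8 ± 1.36 to 25.4 ± 1.85 (SD, n = 3 each).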

How the data were processed

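RNA-seq libraries of MSR1 KO and MSR1 WT macrophages (n = 3 each) were compared from the single table that the authors deposited. The genes of the set and all lists were chosen with earlier results of these data known. Per the labels, the submitters' processing notes name fastp 0.17.1, HISAT2 2.1.0, DESeq2 1.18.1 and R 3.4.3, whereas the study's methods name TopHat and FPKM values. Neither the program used for counting nor its strand option nor the build of the genome is given in the sources used here. The authors deposited raw counts per gene, which were used for every value here. The deposited signal columns, counts divided by a size factor, served only to check the counts. The deposited log2 fold change and p-value columns hold the authors' own comparison and were not used. No value column was left without a sample (0 unmapped).

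Positions follow GENCODE vM21 on GRCm38, in which 52403 of the 52550 identifiers were found and 49909 had the same start and end, and 26 symbols that had become dates were restored. Counts were filtered with filterByExpr (minimum count 10), scaled by TMM and tested with edgeR 4.0.16 (glmQLFit and glmQLFTest, R 4.3.3) with Benjamini-Hochberg adjustment over 16402 genes, and an adjusted p under 0.05 was a call. A fold change above 1.5 with an unadjusted p under 0.05, the study's definition, was a second rule. CPM used TMM-scaled library sizes, and levels per length were divided by the kilobases of all exons of a gene. A zero was taken to allow up to 3 counts, a limit that covers counting error alone. Likeness used log2 CPM with a prior count of 2. The tests were checked on simulated data.

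Named genes were the 10 of the set, Msr1, the called genes of each list (up to 6) with its 2 most abundant tested genes, the 6 genes most like Hpgd and called genes within 5 Mb of it, and exceptions are marked. The values of 1 receptor gene named by this rule are not reported here. Cell type markers were summed per library. Alternatives were the Wald test of DESeq2 1.42.0, edgeR with the DESeq2 scaling or with library size alone, edgeR without a filter or with 10 counts required in all libraries, a block on the replicate number, and removal of each library in turn. Sequences were taken from RefSeq (GRCm38.p6), and near-identical transcripts were sought with blastn at 90% identity over 100 bases.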

Additional observations from a re-analysis of the deposited data

How the results depend on the processing

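No result changed direction past the test, and the log2 fold change of Hpgd ran from -5.97 to -5.77 over 12 alternatives. Several calls of the lists changed with the setting. With DESeq2, 720 genes were higher and 848 lower over all genes, and the lists gave 4 higher cAMP-responsive genes, 5 lower inactivation and transport genes, 1 lower receptor and 2 lower synthases. With library size alone the arachidonate list lost its higher gene (0) and the synthases gained 1 lower, and at least 10 counts in every library also gave 1 lower synthase. Without a filter, 237 genes were higher and 288 lower, the arachidonate list had 0 higher and the PPARγ list 1 lower. By the study's rule there were 3 higher cAMP-responsive genes, 1 higher and 1 lower inactivation and transport gene, 1 lower receptor and 2 lower synthases, and 10.5% of genes within 5 Mb of Hpgd and 12.2% within 10 Mb were called, against 0% and 8.16% by the adjusted p. With the longest transcript as length, levels over all libraries were 44.0 for Ptgs1, 43.0 for Ptges3, 67.5 for Tbxas1, 6.74 for Ptger2 and 14.1 CPM per kilobase for Ptger4. The cause of these changes was not tested.

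Leaving out 1 library at a time gave 18 to 407 higher and 53 to 372 lower genes, the fewest without the first WT library and the most called in all without the third WT library. Counts in the lists ran from 0 to 1 higher and 0 to 1 lower for arachidonate genes, 0 to 1 higher for cAMP-responsive genes, 0 to 4 lower for inactivation and transport, 0 to 2 lower for synthases and 1 lower throughout for the PPARγ list. Slco2a1 did not pass without the first KO library (edgeR adjusted p = 0.0863), the third KO library (0.0711) or the first WT library (0.109). Abcc1 (up to 0.0771) and Dagla (up to 0.11) passed only without the third WT library, as did Zadh2 (up to 0.162). Pla2g16 passed only without the second KO library, and Cd36 passed in no fit that left out a library (0.0679 to 0.155). Pde3b did not pass without the first KO (0.0624), first WT (0.0883) or second WT library (0.0609).

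The labels number the libraries 1 to 3 in both genotypes. Correlations of same-numbered libraries' deviations from their group means were -0.0261, 0.0187 and -0.0048. With 3 libraries per genotype, these values cannot show whether same-numbered libraries shared more than a number. With the replicate number as a block, 59 genes were higher and 78 lower, the arachidonate list had 0 higher and 0 lower and the inactivation and transport list 0 lower, and Hpgd was at -5.90. Not every library correlated best with its own number.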
